A study of Mus musculus with 26 samples.

Results

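The 9 immediate early genes described here belong to 3 families: Egr1, Egr2 and Egr3 of the EGR family, Nr4a1, Nr4a2 and Nr4a3 of the NR4A family, and Ier2, Ier3 and Ier5 of the IER group. They were taken by symbol from the deposited gene tables, which held 20430 symbols for RNA and 19941 for ribosome footprints, and all 9 had a row in both. The cells were NIH3T3, an established line of mouse embryonic fibroblasts. Polyadenylated RNA was sequenced in 8 groups: cells heated to 44 °C for 2 h or 42 °C for 8 h with a control for heat, and cells under oxidative stress (H2O2) or osmotic stress (KCl) for 2 h or 7 h with a control that these agents share. Footprints, the mRNA fragments covered by ribosomes, were sequenced in the 5 groups of the H2O2/KCl experiment, and each of the 13 groups had 2 replicates. The labels give no dose of H2O2 or KCl and do not say whether replicates were separate cultures, so p-values measure only the spread between these samples, which may be technical.

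Immediate early genes are transcribed within minutes of a stimulus from factors the cell already holds, with no need for new protein. Many of their promoters carry sites for SRF, which binds CArG boxes together with partner proteins, and for CREB, which binds cAMP response elements, and their mRNAs are usually short lived. EGR proteins are zinc finger transcription factors that the NAB corepressors restrain. NR4A proteins are nuclear receptors without a known ligand requirement, of which NR4A1 and NR4A2 can pair with RXR. IER2 is a nuclear regulator of transcription, IER3 acts in cell survival and is a target of NF-kB, and IER5 binds PP2A and HSF1, the master factor of the heat shock response.

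Short stretches of the promoters are shown because they hold letters known as sites of CREB, SRF and NF-kB, factors that act on immediate early genes. Promoter windows (250 bases before to 50 bases after an annotated start) were available from RefSeq, assembly GRCm38.p6, for 6 of the 9 genes, with 10 windows in all. They were searched for TGACG, the core of the cAMP response element, and for the other motifs named here, each on either strand. Nr4a1, Nr4a2 and Nr4a3 each held 4 matches, while 20.8% of 32851 promoter windows of the same length held at least 1 and 0.231% held at least 4. Of the 5 windows annotated for Egr2, which overlap in part, 3 held 2 matches each. In the stretches below, the capitals mark TGACG or its reverse complement CGTCA. They lie at chr15:101266611-101266640 (plus strand) for Nr4a1, chr2:57124120-57124149 (minus strand) for Nr4a2 and chr4:48045071-48045100 (plus strand) for Nr4a3.
Nr4a1: tgCGTCAatggaaccccgcgtgCGTCAcgc
Nr4a2: cgCGTCAcggagcccggccgggcTGACGgg
Nr4a3: gggTGACGtagcgtcccatgtCGTCAcatt
The CArG box of SRF was found in 4 of the 5 windows annotated for Egr2 and in 1.63% of all windows. The NF-kB motif was found in the Ier3 window (1 match), the Nr4a1 window (1), 1 of the Egr2 windows (2) and 8.46% of all windows. Capitals mark the CArG box at chr10:67537787-67537816 (plus strand) for Egr2 and the NF-kB match at chr17:35821611-35821640 (plus strand) for Ier3.
Egr2: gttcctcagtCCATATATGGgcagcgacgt
Ier3: tgcgaagggcGGAGTTCCCCccggcccggc
The Ier5 window held none of the motifs searched, which also included the EGR motif and the heat shock element core GAANNTTC, and these letters are absent from that window only. A match is a description of the sequence and was not tested for function.

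Libraries held 24441877 to 45244430 expected counts for RNA and 1460751 to 5168537 for footprints, the shallowest being replicate 1 of footprints after 2 h in H2O2. No replicate pair held identical values, and each differed by more than counting noise (chi-square of 3.16 to 11.98 per gene). Fibroblast markers went with the label of the cells. A median of at least 1 TPM (transcripts per 1000000, a level divided by transcript length) was reached by 11 of 11. Their summed level was 4272 to 11658 TPM per library. Summed levels were 36.7 to 112 TPM for 4 epithelial markers, 5.42 to 44.7 TPM for 3 leukocyte markers and 0.340 to 3.18 TPM for 3 endothelial markers. Of these, 2 of 4 epithelial, 1 of 3 leukocyte and 0 of 3 endothelial markers had a median of at least 1 TPM. They were Krt19 (20.1 to 93.9 TPM), Krt18 (6.46 to 17.2 TPM) and Cd68 (5.32 to 44.7 TPM). Cdh1, Ptprc and Cdh5 stayed below 1 TPM in every library. In these bulk samples fewer cells with an RNA and less of it per cell cannot be told apart.

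Before stress, the 9 genes differed widely in level. In the H2O2/KCl control Ier3 stood highest at 85.2 ± 2.93 TPM (mean ± SD, n = 2, as for all TPM values), followed by Egr1 at 76.6 ± 9.41, Ier2 at 56.7 ± 3.51 and Ier5 at 35.9 ± 3.8 TPM. Nr4a1 stood at 24.2 ± 1.48 TPM, Nr4a2 at 8.02 ± 0.163, Egr3 at 5.06 ± 0.0636, Nr4a3 at 2.12 ± 0.134 and Egr2 at 0.610 ± 0.156 TPM. In the heat control Egr1 was the highest at 176 ± 3.65 TPM and Nr4a3 the lowest at 1.48 ± 0.00707 TPM. Egr1 and Ier2 (97.0 ± 0.622 TPM in the heat control) therefore started from a higher level in the heat experiment than in the other. The controls belong to different experiments, so this difference was not tested and the source of it cannot be told apart from the experiment.

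**Figure D1:**
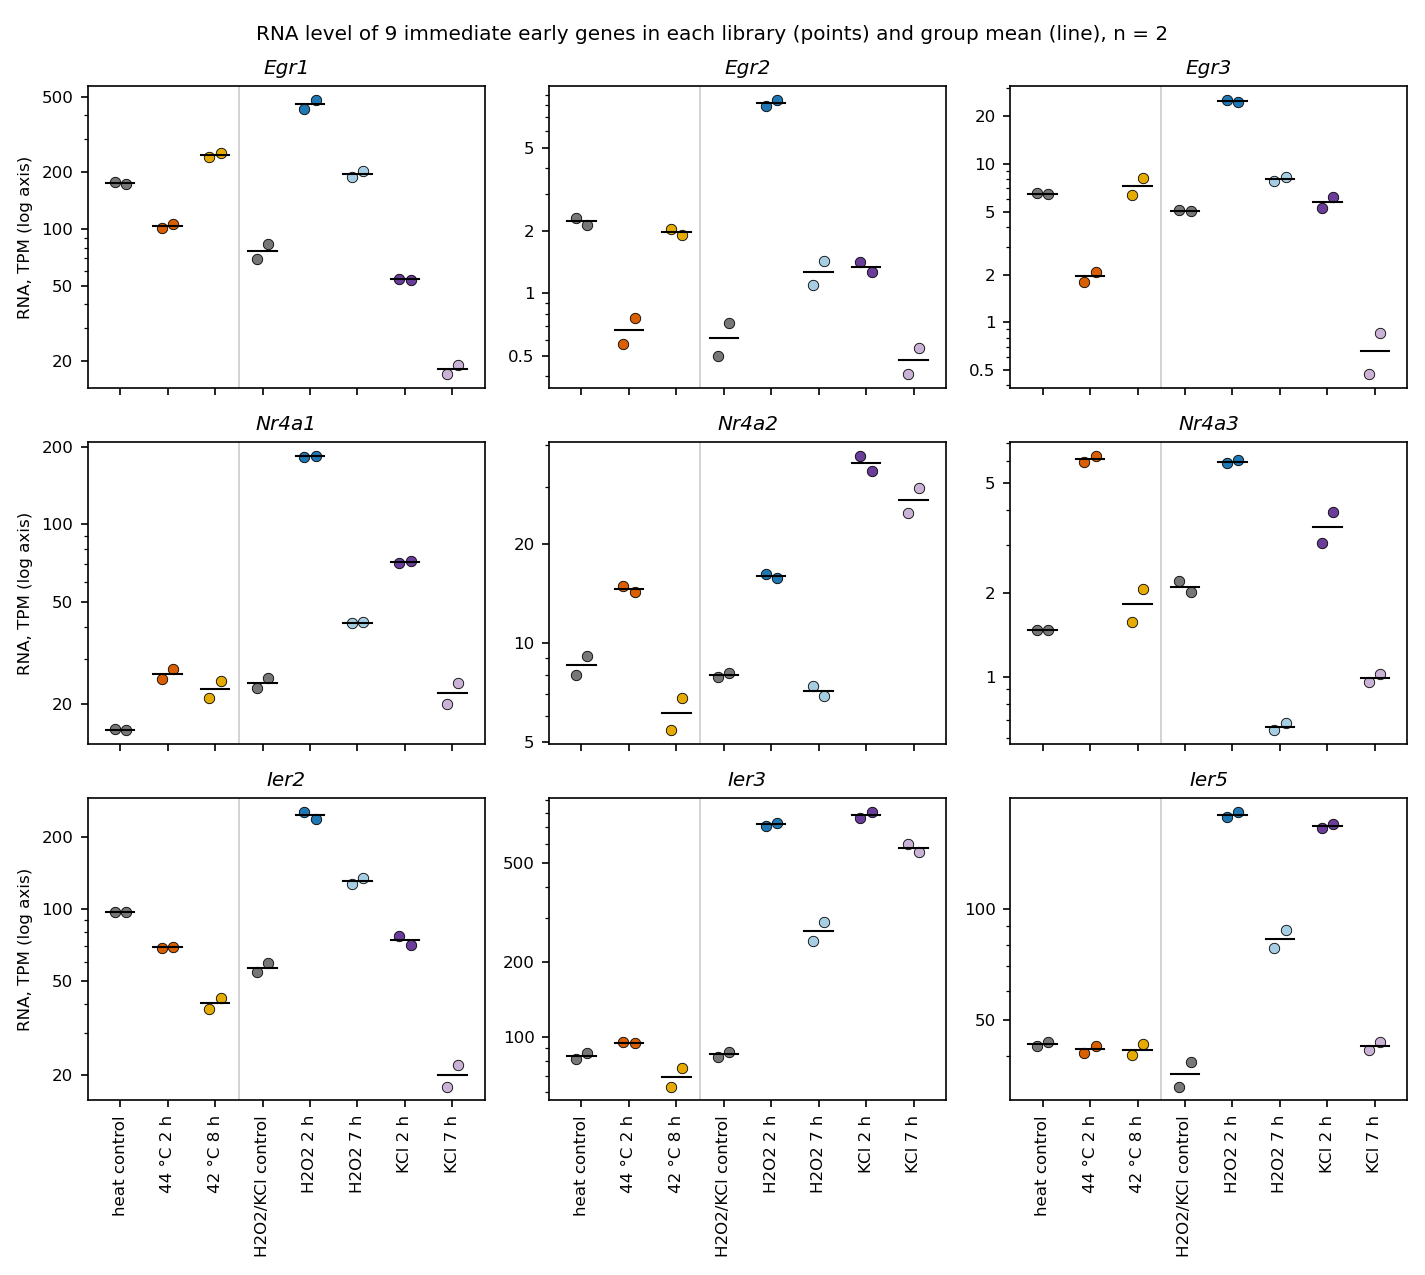
RNA level in TPM (log axis, scaled for each gene) of the 9 genes in each of 16 RNA libraries, with points for libraries, lines for the means of 2 replicates and a grey rule between the heat and the H2O2/KCl experiment. All 9 genes lie above their control after 2 h in H2O2, and Egr1, Egr3, Nr4a3 and Ier2 lie below it after 7 h in KCl.

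The order of RNA levels over the 8 groups differed among the genes, also within the NR4A and IER families. These levels are TPM, not corrected for library composition, and the orders were not tested. Between groups of the heat and the H2O2/KCl experiment an order cannot be told apart from the experiment. Egr1, Egr2, Egr3, Nr4a1, Ier2 and Ier5 reached their highest mean after 2 h in H2O2 (459 ± 36.0, 8.21 ± 0.403, 24.98 ± 0.686, 184 ± 1.00, 247 ± 10.95 and 179 ± 4.05 TPM). Nr4a2 and Ier3 were highest after 2 h in KCl, at 35.3 ± 2.60 and 783 ± 28.4 TPM. Nr4a3 was highest after 44 °C, at 6.12 ± 0.205 TPM, and its libraries there overlapped those after 2 h in H2O2 (5.98 ± 0.0778 TPM). The lowest mean was after 7 h in KCl for Egr1 (18.2 ± 1.48 TPM), Egr2 (0.480 ± 0.0990), Egr3 (0.660 ± 0.269) and Ier2 (20.05 ± 2.99). For Egr2 the libraries of that group overlapped those of the H2O2/KCl control, which overlapped those after 44 °C in turn. For Nr4a1 each group overlapped the next along 44 °C, the H2O2/KCl control, 42 °C and 7 h of KCl (26.2, 24.2, 22.9 and 22.1 TPM). Both of its TPM values after 44 °C still lay above those after 42 °C and after 7 h in KCl. With library composition normalized, the heat groups were only 0.04 apart on the log2 scale, with 42 °C the higher. Ier5 likewise overlapped from each group to the next along the heat control, 7 h of KCl, 44 °C and 42 °C (43.3, 42.7, 41.8 and 41.7 TPM). Both of its heat controls lay above both libraries after 44 °C.

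After 2 h in H2O2 every one of the 9 genes was called higher in RNA, where a call is an adjusted p under 0.05 in edgeR's quasi-likelihood test across all genes. In that comparison 27.3% of 13256 genes were called higher and 26.5% lower. The members were chosen with earlier results of these data known. Counts set against such shares are therefore a description and no test of the group. In H2O2 for 7 h, 7 genes were called higher and 1 (Nr4a3) lower, against 39.4% and 31.1% of all genes. After 2 h in KCl, 7 were called higher and 1 (Egr1) lower, against 27.2% and 27.0%. In KCl for 7 h, 3 (Nr4a2, Ier3 and Ier5) were called higher and 4 (Egr1, Egr3, Nr4a3 and Ier2) lower, against 37.2% and 31.6%. After 44 °C, the 3 NR4A genes were called higher and 4 genes (Egr1, Egr2, Egr3 and Ier2) lower, against 35.4% and 35.7% of 12747 genes. After 42 °C, 5 genes were called higher and 2 (Nr4a2 and Ier2) lower, against 31.7% and 31.9%. The counts after 44 °C, 42 °C and 7 h of KCl were mixed in direction and near the background share.

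Limits of these counts lie mainly in the heat experiment. The comparisons share a control within each experiment. A further demand was a change of at least 1 on the log2 scale. It was met by 3 genes after 44 °C (Egr2, Egr3 and Nr4a3) and 1 (Ier2) after 42 °C. After 2 h in KCl 5 met it (Egr2, Nr4a1, Nr4a2, Ier3 and Ier5), and after 2 h in H2O2 all 9. No share of all genes was counted at this demand, so these counts have no background to be read against. On a TPM scale (limma on log2(TPM + 1)) the median of all genes moved to -0.17 after 42 °C and -0.11 after 2 h in KCl. The split of calls after 42 °C was then 16.3% higher and 52.0% lower, and after 2 h in KCl 20.02% higher and 39.2% lower. Relative to the median of all genes, 6 of 9 members lay above it after 42 °C and 8 of 9 after 2 h in KCl on either scale.

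**Figure D2:**
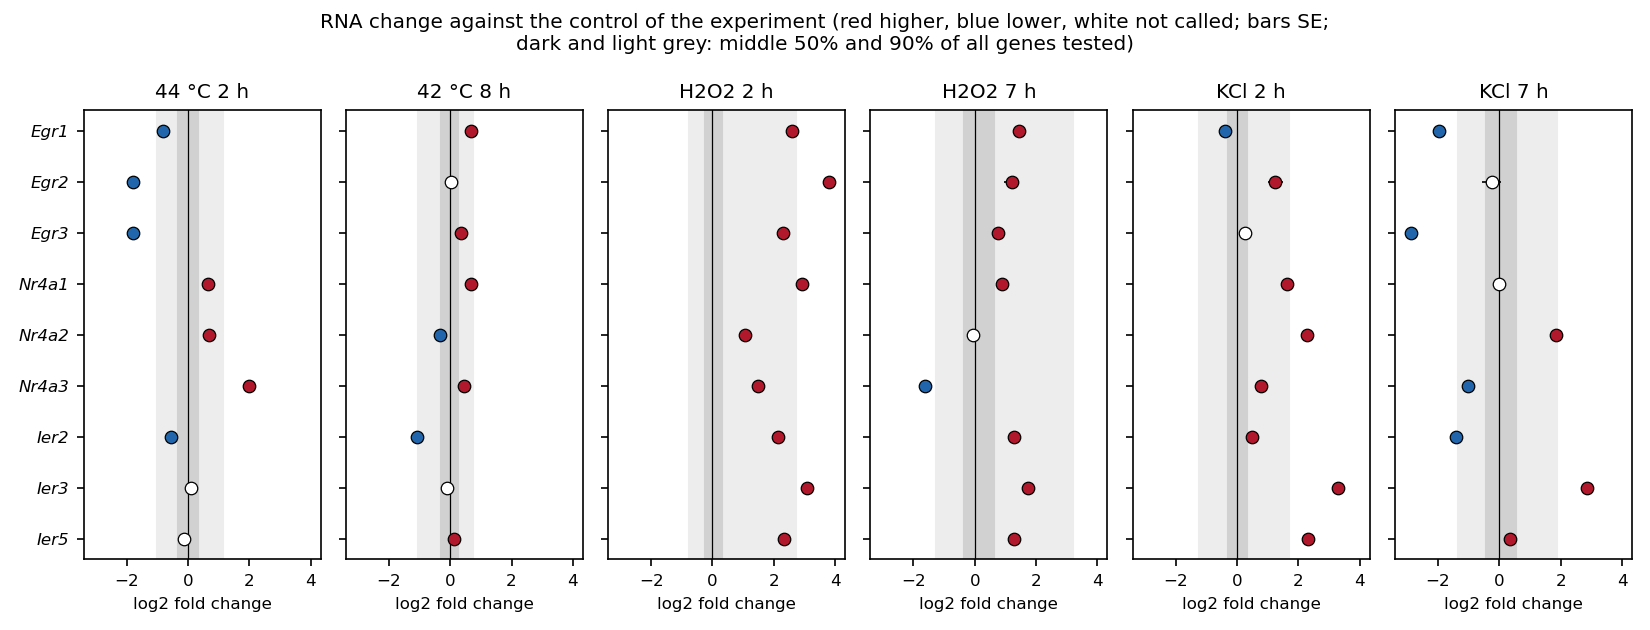
RNA log2 fold change (horizontal axis) of each gene against the control of its experiment, with SE bars, red for called higher, blue for called lower and white for not called. Grey bands give the middle 50% and 90% of all genes tested. After 2 h in H2O2 all 9 genes lie outside the dark band, between 1.06 and 3.8. Only Egr2, Nr4a1 and Ier3 lie above the light band there, whose upper edge is 2.71. After 44 °C the 3 EGR genes lie below 0 and the 3 NR4A genes above 0.

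Of the 3 EGR genes described here, Egr1 had the highest RNA level in these cells. Its RNA was 97.0 and 114 CPM in the 2 libraries of the H2O2/KCl control (CPM are counts per 1000000 after normalization of library composition, used here to compare libraries for 1 gene). It was 598 and 666 CPM after 2 h in H2O2 and 276 and 296 at 7 h. In KCl for 2 h, it was 80.9 and 78.7 CPM and at 7 h 25.6 and 28.2. The libraries of each H2O2 group lay above both controls and those of each KCl group below both. The log2 fold change was 2.58 (SE 0.09, adjusted p = 1.9e-11) after 2 h in H2O2, a 5.99-fold rise, and 1.44 (SE 0.08, adjusted p = 1.39e-09) at 7 h. In KCl Egr1 fell by 0.40 on the log2 scale (SE 0.08, adjusted p = 0.00101) at 2 h and by 1.98 (SE 0.09, adjusted p = 4.94e-10) at 7 h. Under heat, Egr1 RNA was 245 and 238 CPM in the control, 132 and 141 after 44 °C and 381 and 393 after 42 °C, with no overlap between the groups. It fell by 0.82 on the log2 scale after 44 °C (SE 0.04, adjusted p = 1.32e-09) and rose by 0.68 after 42 °C (SE 0.04, adjusted p = 1.24e-08).

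Egr2, best known for its part in myelination and hindbrain patterning, had the lowest level per length of the 9 genes in the H2O2/KCl control and rose most after 2 h in H2O2. Its RNA was 0.641 and 0.943 CPM in the control, 10.5 and 11.2 after 2 h in H2O2 and 1.55 and 2.10 at 7 h. It was 1.98 and 1.75 CPM after 2 h in KCl and 0.572 and 0.75 at 7 h. The libraries overlapped the control after 7 h in KCl only. The rise was 13.9-fold after 2 h in H2O2 (log2 fold change 3.8, SE 0.18, adjusted p = 6.46e-10) and 2.38-fold after 2 h in KCl (1.25, SE 0.24, adjusted p = 5.26e-04). At 7 h the log2 fold change was 1.2 in H2O2 (SE 0.24, adjusted p = 3.66e-04) and -0.25 in KCl, which did not pass the test (SE 0.31, adjusted p = 0.482). After 44 °C its RNA went from 3.10 and 2.74 CPM in the control to 0.740 and 0.956, and it fell by 1.79 on the log2 scale (SE 0.21, adjusted p = 2.86e-06). After 42 °C it was 3.09 and 2.86 CPM, between the 2 control libraries, and did not pass the test (0.03, SE 0.17, adjusted p = 0.907).

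Egr3, a factor that shares the DNA site of Egr1, was 9.0 and 8.78 CPM in the control and 44.8 and 42.9 after 2 h in H2O2. It was 14.6 and 15.4 CPM after 7 h in H2O2, 9.92 and 11.5 after 2 h in KCl and 0.893 and 1.59 after 7 h in KCl. No group's libraries overlapped the control's, and those after 7 h in KCl were the lowest. Egr3 rose 4.92-fold after 2 h in H2O2 (log2 fold change 2.30, SE 0.10, adjusted p = 3.46e-10) and fell by 2.88 on the log2 scale after 7 h in KCl (SE 0.17, adjusted p = 4.84e-09). The value of 0.27 after 2 h in KCl did not pass the test (SE 0.12, adjusted p = 0.0648). Under heat it was 11.4 and 11.3 CPM in the control, 2.96 and 3.56 after 44 °C and 12.7 and 16.2 after 42 °C. It fell by 1.80 on the log2 scale after 44 °C (SE 0.13, adjusted p = 2.39e-08), as Egr1 and Egr2 did. The rise of 0.34 after 42 °C (SE 0.11, adjusted p = 0.0116) was not called without replicate 2 of that group (0.165) or on the TPM scale (0.13), and was 0.513 without replicate 1.

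Of the NR4A genes, Nr4a1 (Nur77), which acts in apoptosis and metabolism, responded most to H2O2. Its RNA was 27.0 and 29.3 CPM in the control, 210.0 and 211 after 2 h in H2O2 and 51.6 and 52.2 at 7 h. It was 85.8 and 87.6 CPM after 2 h in KCl and 25.4 and 30.1 at 7 h, where the libraries spanned the control. The rise was 7.49-fold after 2 h in H2O2 (log2 fold change 2.90, SE 0.07, adjusted p = 2.99e-12) and 3.09-fold after 2 h in KCl (1.63, SE 0.07, adjusted p = 5.69e-10). At 7 h the log2 fold change was 0.88 in H2O2 (SE 0.07, adjusted p = 9.00e-08) and -0.02 in KCl, which did not pass the test (SE 0.08, adjusted p = 0.801). In the heat control it was 18.5 and 18.6 CPM, against 27.3 and 31.0 after 44 °C and 28.2 and 32.0 after 42 °C. The rises of 0.65 and 0.69 on the log2 scale (adjusted p = 3.64e-06 and 3.33e-06, edgeR) were close, and the difference between the heat groups did not pass the test (0.04, SE 0.08, adjusted p = 0.632). On the TPM scale that difference was -0.19 and passed it (adjusted p = 0.0407, limma).

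Nr4a2 (Nurr1), known from the development of dopaminergic neurons, was the NR4A gene with the highest response to KCl. Its RNA was 12.3 and 12.6 CPM in the control, 61.9 and 60.2 after 2 h in KCl and 41.1 and 49.0 at 7 h. It was 26.6 and 25.1 CPM after 2 h in H2O2 and 12.04 and 11.7 at 7 h. Every KCl library lay above every H2O2 library. The rise in KCl was 4.91-fold at 2 h (log2 fold change 2.29, SE 0.09, adjusted p = 1.15e-10) and 3.61-fold at 7 h (1.85, SE 0.09, adjusted p = 5.41e-10). In H2O2 it was 2.08-fold at 2 h (1.06, SE 0.09, adjusted p = 2.39e-07), and the value of -0.07 at 7 h did not pass the test (SE 0.10, adjusted p = 0.538). Under heat it was 12.5 and 13.6 CPM in the control, 21.8 and 20.7 after 44 °C and 9.5 and 11.6 after 42 °C. The rise of 0.70 on the log2 scale after 44 °C (SE 0.08, adjusted p = 4.04e-06) was not shared after 42 °C, where it fell by 0.32 (SE 0.09, adjusted p = 0.00960). The latter was not called without replicate 1 of the 42 °C group (-0.17) or without replicate 2 of the control (-0.25).

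Nr4a3 (Nor1), a regulator of vascular and immune cell growth, had its largest response to 44 °C. Its RNA was 3.79 and 3.77 CPM in the heat control, 14.7 and 15.6 after 44 °C and 4.61 and 5.92 after 42 °C. The rise was 3.99-fold after 44 °C (log2 fold change 2.00, SE 0.11, adjusted p = 1.39e-09), the highest of the 9 genes there, and 1.38-fold after 42 °C (0.46, SE 0.13, adjusted p = 0.00622). The call after 42 °C was lost without replicate 2 of that group (0.29) and on the TPM scale (0.19). In the H2O2/KCl control it was 5.73 and 5.14 CPM, against 15.1 and 15.3 after 2 h in H2O2 and 8.27 and 10.5 after 2 h in KCl. At 7 h it was 1.73 and 1.78 CPM in H2O2 and 2.64 and 2.78 in KCl, below both controls. Against the control, the log2 fold changes in H2O2 were 1.48 at 2 h (SE 0.11, adjusted p = 9.67e-08) and -1.63 at 7 h (SE 0.16, adjusted p = 3.34e-07). In KCl the log2 fold changes were 0.78 at 2 h (SE 0.12, adjusted p = 8.41e-05) and -1.01 at 7 h (SE 0.15, adjusted p = 2.95e-05).

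Ier2 fell under both heat treatments. Its RNA was 63.6 and 64.1 CPM in the heat control, 42.7 and 44.3 after 44 °C and 28.8 and 31.4 after 42 °C. It fell by 0.55 on the log2 scale after 44 °C (SE 0.05, adjusted p = 4.27e-07) and by 1.09 after 42 °C (SE 0.06, adjusted p = 1.40e-09). In the H2O2/KCl control it was 36.0 and 38.9 CPM, against 168 and 158 at 2 h and 88.4 and 94.5 after 7 h in H2O2. In KCl it was 54.8 and 49.6 CPM at 2 h and 12.8 and 15.5 at 7 h, so the groups lay on opposite sides of the control. The rise was 4.36-fold after 2 h in H2O2 (log2 fold change 2.12, SE 0.08, adjusted p = 6.36e-11) and 2.44-fold at 7 h (1.29, SE 0.08, adjusted p = 3.43e-09). In KCl it was 1.40-fold at 2 h (0.48, SE 0.08, adjusted p = 2.08e-04), and at 7 h it fell by 1.41 on the log2 scale (SE 0.09, adjusted p = 1.30e-08).

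Ier3 had the largest rise over the control of the 9 genes in KCl, at 2 h and at 7 h. Its RNA was 38.4 and 39.9 CPM in the control, 377 and 396 after 2 h in KCl and 297 and 270.3 at 7 h. In H2O2 it was 325 and 335 CPM at 2 h and 118 and 141 at 7 h. Every treated library lay above both controls. The rise in KCl was 9.88-fold at 2 h (log2 fold change 3.30, SE 0.09, adjusted p = 9.98e-12) and 7.24-fold at 7 h (2.86, SE 0.09, adjusted p = 9.57e-12). In H2O2 it was 8.42-fold at 2 h (3.07, SE 0.09, adjusted p = 4.82e-12) and 3.30-fold at 7 h (1.72, SE 0.08, adjusted p = 2.18e-10). Under heat Ier3 was 37.4 and 39.4 CPM in the control, 41.2 and 41.9 after 44 °C and 33.2 and 39.0 after 42 °C, and neither value passed the test (0.12, adjusted p = 0.142, and -0.09, adjusted p = 0.266, edgeR). Both passed on the TPM scale (0.18, adjusted p = 0.0326, and -0.28, adjusted p = 0.00308, limma), and the value at 42 °C also without replicate 2 of that group (-0.21, adjusted p = 0.0260, edgeR).

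Ier5 rose in both H2O2 and KCl at 2 h, with overlapping libraries. Its RNA was 49.1 and 56.4 CPM in the control, 259.5 and 267 after 2 h in H2O2 and 261 and 264 after 2 h in KCl. At 7 h it was 122 and 136 CPM in H2O2 and 66.2 and 68.5 in KCl. The rises at 2 h were 4.99-fold in H2O2 (log2 fold change 2.32, SE 0.08, adjusted p = 1.78e-11) and 4.98-fold in KCl (2.32, SE 0.08, adjusted p = 3.64e-11). At 7 h the log2 fold change was 1.29 in H2O2 (SE 0.07, adjusted p = 1.52e-09) and 0.35 in KCl (SE 0.08, adjusted p = 8.57e-04). Under heat Ier5 RNA was 62.7 and 64.3 CPM in the control, 56.7 and 60.6 after 44 °C and 67.8 and 71.6 after 42 °C. The value after 44 °C did not pass the test (-0.11, SE 0.05, adjusted p = 0.0533), and the call after 42 °C (0.13, SE 0.05, adjusted p = 0.0300) turned to -0.05 on the TPM scale and was lost with DESeq2 (adjusted p = 0.0597) and without either control library or replicate 2 of the 42 °C group.

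All 9 genes were lower at 7 h than at 2 h, in H2O2 and in KCl. In these comparisons 36.1% (H2O2) and 33.7% (KCl) of all genes were called lower. The log2 difference in H2O2 ran from -0.83 (Ier2) to -3.12 (Nr4a3) and in KCl from -0.44 (Nr4a2) and -0.45 (Ier3) to -3.14 (Egr3). The calls held without any 1 library, with counts of 9 in each case. Between the heat groups 4 genes (Egr1, Egr2, Egr3 and Ier5) were higher after 42 °C for 8 h than after 44 °C for 2 h and 4 (Nr4a2, Nr4a3, Ier2 and Ier3) lower, against 37.9% and 37.2% of all genes. Temperature and duration changed together here and cannot be told apart. On the TPM scale the median of all genes moved to -0.21 in that comparison, with 23.4% called higher and 54.6% lower, and 5 of 9 members lay above the median on either scale. The difference of Ier3 (-0.21, SE 0.07, adjusted p = 0.0151) became -0.09 without replicate 1 of the 42 °C group and was then not called, and that of Ier5 (0.25) turned to -0.0028 on the TPM scale.

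The agents were compared directly at each time. At 2 h, 6 genes were higher in H2O2 than in KCl and 2 (Nr4a2 and Ier3) lower, against 27.0% and 24.2% of all genes, a split that was 32.0% and 16.8% on the TPM scale. The difference was largest for Egr1, at 2.99 on the log2 scale (SE 0.09, adjusted p = 1.34e-11). It was -1.24 for Nr4a2 (SE 0.08, adjusted p = 2.86e-08). For Ier5 it was 0.0036 (SE 0.07, adjusted p = 0.975), with a range of -0.0174 to 0.0164 when each library was left out in turn. The small difference of Ier3 (-0.23, adjusted p = 0.0237, edgeR) was not called without either H2O2 library, without replicate 2 of KCl or on the TPM scale. At 7 h, 6 genes were higher in H2O2 and 3 (Nr4a2, Nr4a3 and Ier3) lower, against 41.0% and 37.4%. The difference was then largest for Egr3 (3.63, SE 0.17, adjusted p = 7.57e-11) and Egr1 (3.41, SE 0.09, adjusted p = 5.23e-13).

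Footprint values show how far ribosomes followed the RNA, relative to other genes of the same libraries. Nr4a3 was too sparse for the footprint test, with 0 to 21 counts per library, so 8 of the 9 genes were tested among 10545. After 2 h in H2O2, 5 of 8 (Egr1, Nr4a1, Ier2, Ier3 and Ier5) were called higher against 1.14% of all genes, and after 2 h in KCl 4 of 8 (Nr4a1, Nr4a2, Ier3 and Ier5) against 1.79%. In H2O2 for 7 h, 2 of 8 (Egr1 and Ier2) were called higher against 17.2%. After 7 h in KCl, 2 of 8 (Nr4a2 and Ier3) were called higher against 10.5%, and 4 (Egr1, Egr3, Nr4a1 and Ier2) lower against 9.83%. The footprint calls at 2 h and after 7 h in H2O2 rest on few libraries. Without replicate 1 of the footprint control 2 genes were called after 2 h in H2O2 and 1 (Ier3) after 2 h in KCl, where Nr4a1, Nr4a2 and Ier5 lost their calls. The same 3 lost them without replicate 2 of the KCl 2 h group, and Nr4a1 also without replicate 1 of it (0.79), on the TPM scale and on the compared groups alone. In H2O2 for 7 h, none was called without replicate 1 of that group or replicate 2 of the control (edgeR; with all libraries 3 had an unadjusted p under 0.05), and 1 (Egr3, lower) without replicate 2 of that group. No share of all genes was counted at that unadjusted level. Fitted on the compared groups alone, only Egr1 was called after 2 h in H2O2. On the TPM scale the split of all calls was 0.334% higher and 0.0834% lower after 2 h in H2O2 (0.768% lower on the main scale). After 7 h in H2O2 it was 16.03% and 5.70% (10.6% lower on the main scale).

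Egr1 had the largest footprint rise. Its footprints were 161 and 99.7 CPM in the control and 1443 and 1151 after 2 h in H2O2, a 9.92-fold rise (log2 fold change 3.31, SE 0.34, adjusted p = 2.08e-04). They were 294 and 297 CPM after 7 h in H2O2 (1.18, SE 0.32, adjusted p = 0.0135) and 194 and 166 after 2 h in KCl, which did not pass the test (0.46, SE 0.31, adjusted p = 0.460). In KCl for 7 h, they were 34.2 and 13.3 CPM, below both controls, and fell by 2.49 on the log2 scale (SE 0.35, adjusted p = 5.67e-04). Ier2 footprints were 41.1 and 48.4 CPM in the control, 235 and 126 after 2 h in H2O2 and 12.4 and 11.1 after 7 h in KCl. They rose 3.98-fold after 2 h in H2O2 (1.99, SE 0.27, adjusted p = 0.00265) and fell by 1.93 on the log2 scale after 7 h in KCl (SE 0.31, adjusted p = 0.00125). Nr4a2 footprints were few, at 2.69 and 3.85 CPM in the control (11 and 14 counts). They were 9.73 and 14.9 CPM at 2 h and 13.5 and 13.0 after 7 h in KCl, above every control library. The rises were 3.76-fold (1.91, SE 0.40, adjusted p = 0.0125) and 4.05-fold (2.02, SE 0.40, adjusted p = 0.00417), of which the first was not called without replicate 1 of the control (adjusted p = 0.0971) or replicate 2 of the treated group (adjusted p = 0.127, edgeR).

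Egr2 and Egr3 footprints were too few to be read closely. Egr2 had 24 counts over both control libraries, 69 after 2 h in H2O2 and 3 after 7 h in KCl. Its footprints were 3.42 and 2.75 CPM in the control and 20.01 and 7.57 after 2 h in H2O2, above both controls, but the change did not pass the test (2.01, SE 0.59, adjusted p = 0.101). Egr3 had 85 counts in the control and 3 after 7 h in KCl. The ratio of that group to the control, corrected for library size, was 0.156 for Egr2 (exact 95% interval 0.0301 to 0.514) and 0.0441 for Egr3 (0.00891 to 0.133). These intervals cover counting error only. The Egr3 call after 7 h in KCl was lost without either KCl library or without replicate 2 of the control, whose 15.7 CPM stood against 6.85 in replicate 1.

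Between 2 h and 7 h, footprints fell for 6 of 8 genes in H2O2 against 11.1% of all genes, and for 5 of 8 in KCl against 8.43%. The 6 genes in H2O2 were Egr1, Egr2, Nr4a1, Ier2, Ier3 and Ier5. The 5 in KCl were Egr1, Egr2, Nr4a1, Ier2 and Ier5. For Nr4a2 and Ier3 in KCl the log2 differences of 0.11 (SE 0.35, adjusted p = 0.860) and -0.08 (SE 0.19, adjusted p = 0.797) did not pass the test. The fall of Ier2 in H2O2 (-1.18) was -0.68 without replicate 1 of the 2 h group. That of Egr2 in KCl was not called without replicate 2 of the 7 h group or without either 2 h library. On the TPM scale 19.98% of all genes were called higher and 6.01% lower in the H2O2 comparison, against 18.7% and 11.1%, and the median moved to 0.18, with none of the 8 genes above it on either scale.

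**Figure D3:**
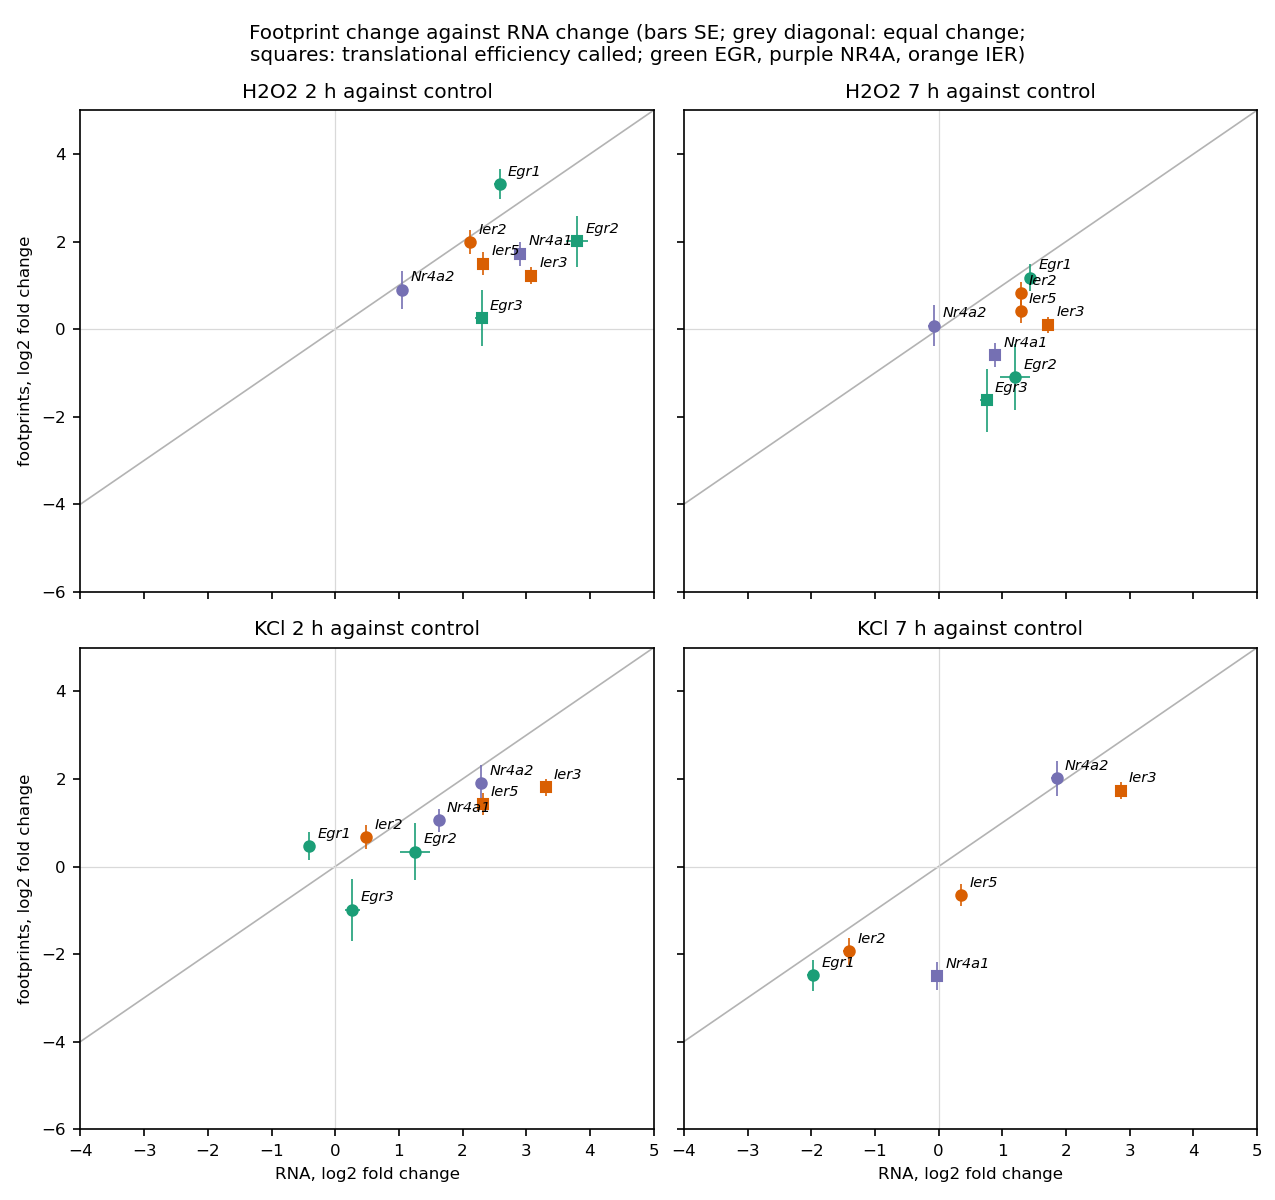
Log2 fold change of footprints (vertical axis) against that of RNA (horizontal axis) in 4 treatments, with SE bars and a diagonal of equal change; squares mark genes whose translational efficiency was called. Nr4a3 was not tested, and Egr2 and Egr3 are left out after 7 h in KCl, where they had 3 counts each. Ier3 lies under the diagonal in all 4 panels and Nr4a1 lies far under it after 7 h in KCl, at -0.02 for RNA and -2.5 for footprints.

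Translational efficiency (footprints relative to RNA) was tested as an interaction over 20 libraries and 10480 genes, with Nr4a3 again untested. Each kind of library was normalized on its own, and the median change of all genes lay between -0.021 and 0.057. A change of efficiency is thus relative to other genes, and a shift shared by all mRNAs would not be seen. No member was called higher with all libraries (edgeR). Counts at an unadjusted p under 0.05 in either direction were 5 and 5 of 8 at 2 h and 7 h of H2O2. They were 3 and 4 of 8 at 2 h and 7 h of KCl, and the share of all genes at that level was not counted. After 2 h in H2O2, 5 of 8 were called lower (Egr2, Egr3, Nr4a1, Ier3 and Ier5) against 7.46% of all genes, and at 7 h 3 of 8 (Egr3, Nr4a1 and Ier3) against 4.57%. In KCl 2 of 8 were called lower at 2 h (Ier3 and Ier5) against 9.18%, and 2 of 8 at 7 h (Nr4a1 and Ier3) against 3.88%.

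Ier3 had lower translational efficiency, relative to other genes, in all 4 treatments. Its footprints were 127 and 134 CPM in the control, 305 in each library after 2 h in H2O2 and 126 and 153 at 7 h. They were 459 and 458 CPM after 2 h in KCl and 491 and 376 at 7 h. The footprint rise was 2.34-fold after 2 h in H2O2 (log2 fold change 1.22, SE 0.19, adjusted p = 0.00737, edgeR) beside 8.42-fold in RNA. That footprint call was lost without either footprint control (1.18 and 1.26) and on the compared groups alone (1.23, adjusted p = 0.0548, edgeR). After 2 h in KCl the footprint rise was 3.51-fold (1.81, SE 0.19, adjusted p = 2.12e-04, edgeR) beside 9.88-fold. In H2O2 for 7 h, the footprint value of 0.10 did not pass the test (SE 0.19, adjusted p = 0.742), while RNA stood 3.30-fold higher. Efficiency fell by 1.89 on the log2 scale after 2 h in H2O2 (SE 0.19, adjusted p = 2.20e-05) and by 1.62 at 7 h (SE 0.19, adjusted p = 1.60e-04). In KCl it fell by 1.503 at 2 h (SE 0.19, adjusted p = 7.92e-05) and by 1.10 at 7 h (SE 0.19, adjusted p = 0.00294). Each of these 4 calls held when any 1 library was left out, with a highest adjusted p of 0.0229 (edgeR).

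Nr4a1 footprints did not follow its RNA to 7 h. They were 48.4 and 89.0 CPM in the control, 211 and 242 after 2 h in H2O2 and 38.4 and 52.7 at 7 h. They were 165 and 119 CPM after 2 h in KCl and 11.3 and 12.8 at 7 h, where both libraries lay below both controls. After 7 h in KCl footprints fell by 2.5 on the log2 scale (SE 0.32, adjusted p = 2.90e-04) while RNA did not pass the test (-0.02), and efficiency fell by 2.45 (SE 0.35, adjusted p = 9.73e-04). In H2O2 efficiency fell by 1.21 at 2 h (SE 0.29, adjusted p = 0.0131) and by 1.47 at 7 h (SE 0.30, adjusted p = 0.00601). The calls at 7 h held when any 1 library was left out, while the value after 7 h in H2O2 was -0.95 without replicate 2 of the footprint control. The call at 2 h was lost without that library (-0.71, adjusted p = 0.0711, edgeR) or without replicate 1 of the RNA control.

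The remaining efficiency calls were less firm. Ier5 footprints were 81.4 and 122 CPM in the control, 322 and 253 after 2 h in H2O2 and 229.8 and 315 after 2 h in KCl. Efficiency of Ier5 fell by 0.87 (adjusted p = 0.0489) and 0.90 (adjusted p = 0.0372) after 2 h in H2O2 and KCl (edgeR). Without replicate 2 of the footprint control these were -0.56 and -0.58 and not called. The H2O2 call was also lost without replicate 2 of the treated footprints (-0.70) or any 1 of the 4 RNA libraries. It was not called with RLE size factors (adjusted p = 0.0562) or with no filter on low counts (adjusted p = 0.0660, edgeR). The efficiency of Egr2 after 2 h in H2O2 (-2.0, adjusted p = 0.0404, edgeR) was -1.15 without replicate 2 of the treated footprints. It was then not called, and the call was also lost without either footprint control or any 1 of the 4 RNA libraries. Efficiency of Egr3 was -1.92 at 2 h (adjusted p = 0.0226) and -2.37 after 7 h in H2O2 (adjusted p = 0.0277, edgeR). It was -1.23 at 2 h without replicate 2 of the footprint control, -3.08 without replicate 2 of the treated footprints, and -1.57 at 7 h without replicate 1 of that group. Without replicate 2 of that group, 3 Egr3 counts remained in the treated footprints. The Egr3 call at 7 h was lost without replicate 1 of the treated footprints, replicate 2 of the footprint control or any 1 of the 4 RNA libraries. The call at 2 h was lost without replicate 2 of the footprint control, replicate 2 of the treated RNA or either RNA control, and by voom (adjusted p = 0.0613). Without replicate 2 of the footprint control or replicate 1 of the RNA control, Ier3 alone was called after 2 h in H2O2. There were 2 calls without replicate 2 of the treated RNA or of the RNA control, and 3 without replicate 2 of the treated footprints or replicate 1 of the treated RNA. For KCl at 2 h, Ier3 alone was called without replicate 1 of the treated footprints, replicate 2 of the footprint control or any 1 of the 4 RNA libraries. With replicate 1 of the footprint control left out, 4 were called there, Egr1 (1.25) among them as higher. Egr1, Nr4a2 and Ier2 had no efficiency call with all libraries, with values between -0.50 and 0.86, but Egr1 after 2 h in KCl was called higher by limma's voom fit (0.88, adjusted p = 0.0487). Leaving out a single library gave calls of lower efficiency for Ier2 after 2 h in H2O2 (-0.67, without replicate 1 of the treated footprints) and Egr1 after 7 h in KCl (-1.28, likewise).

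The study concerned stress-induced transcription that does not stop at a gene's end and reaches its neighbour. The authors deposited calls of DoGs (transcripts that continue downstream of a gene) and of read-in, which marks such transcription reaching the downstream neighbour, for 6399 pairs of neighbours in each RNA library. Of these pairs 8 held one of the 9 genes, 3 with it upstream and 5 downstream, and 7 of the 9 genes were in a pair. Ier2 was the only member with a read-in call. It lies at chr8:84661331-84662852 (GRCm38.p6), 7624 bases from Nacc1, a transcriptional corepressor gene at chr8:84670477-84687862. A DoG of Nacc1 was called in 16 of 16 libraries, and read-in to Ier2 was called in 4: both libraries after 2 h in H2O2 and both after 2 h in KCl. Read-in was called in both libraries for 1.89% of pairs after 2 h in H2O2 and 2.17% after 2 h in KCl. The share of all pairs with a DoG call was not counted.

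The authors' read-in estimate, a deposited ratio whose formula none of the sources used here gives, differed between treatments for Ier2. It was 0.00875 and 0.00616 in the H2O2/KCl control, 0.0599 and 0.0754 after 2 h in H2O2 and 0.00157 and 0.00637 at 7 h. It was 0.183 and 0.202 after 2 h in KCl and 0.106 and 0.117 at 7 h. In the heat control it was 0.00330 and 0.00193, after 44 °C 0.00976 and 0.0229, and after 42 °C 0.0438 and 0.0495. The KCl libraries were thus the highest at each time, and the groups with the lowest Ier2 RNA (7 h of KCl and 42 °C) stood above their controls. Ier2 itself stood at 17.9 and 22.2 TPM after 7 h in KCl and at 254.8 and 239 TPM after 2 h in H2O2, and the part of this level in the estimate was not tested. Among all pairs with an estimate, 81.0% and 81.8% lay below the Ier2 pair after 2 h in H2O2, against 85.2% and 78.9% in the control, so its rank was no higher. The rank was 88.2% and 87.6% after 2 h in KCl and 89.6% and 90.1% at 7 h. Nacc1 RNA was called lower after 2 h and 7 h in H2O2 (-0.31 and -0.34 on the log2 scale) and KCl (-0.39 and -0.20), and higher after 44 °C (0.19). The adjusted p was 6.48e-04, 1.51e-04, 8.12e-05, 0.00909 and 4.41e-04 in that order (edgeR), and the value of 0.05 at 42 °C did not pass the test (adjusted p = 0.309).

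**Figure D4:**
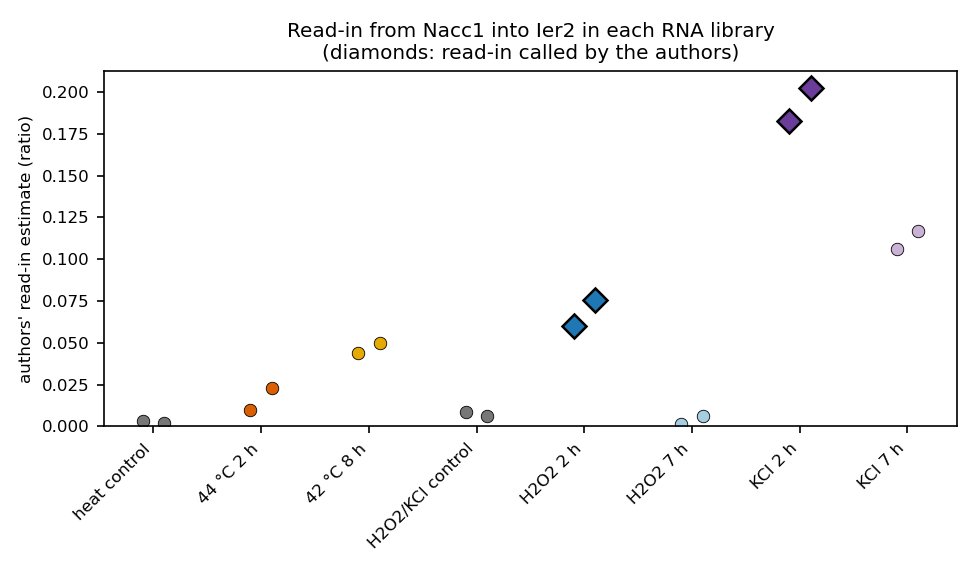
The authors' read-in estimate (a ratio, vertical axis) from Nacc1 into Ier2 in each of 16 RNA libraries, 2 per group, with diamonds where the authors called read-in. The KCl libraries lie between 0.106 and 0.202, and those after 2 h in H2O2 at 0.0599 and 0.0754.

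The other pairs had DoG calls without read-in, and how common DoG calls were over all pairs was not counted. A DoG of Egr3 toward Bin3 was called in 2 libraries, both after 2 h in H2O2, where Egr3 RNA was highest. Egr2 (toward Rtkn2) and Ier5 (toward Cacna1e) had 1 DoG call each in 16 libraries. DoGs of upstream neighbours were called in 12 of 16 libraries for Grasp next to Nr4a1 and in 9 of 16 for Mr1 next to Ier5, with estimates of at most 0.00482 for Nr4a1 and 0.000983 for Ier5. Reep2 next to Egr1 and Sec61b next to Nr4a3 had 1 DoG call each, with estimates of up to 0.0186 and 0.242 and no read-in call.

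Genes of the signalling pathways around the members were counted from 9 lists, chosen with earlier results of these data known. Their counts stand against the shares of all genes called higher and lower: 27.3% and 26.5% (2 h) and 39.4% and 31.1% (7 h) for H2O2, and 27.2% and 27.0% (2 h) and 37.2% and 31.6% (7 h) for KCl. For heat the shares were 35.4% and 35.7% (44 °C) and 31.7% and 31.9% (42 °C). Many counts of the smaller lists lie near these shares. Among 20 other immediate early genes, 19 were called higher and 1 lower after 2 h in H2O2 (median log2 fold change 2.60), led by Fosb (5.37, SE 0.16), a partner in AP-1. In KCl for 2 h, 17 were higher and 3 lower (median 1.42, Csrnp1 first at 3.68), and after 7 h in KCl 6 were higher and 8 lower (median -0.13, Klf2 first at -2.51). After 7 h in H2O2 15 were higher and 3 lower (median 0.93, Btg2 first at 3.71). After 44 °C 7 were higher and 10 lower (median -0.04, Cyr61 first at -2.45), and after 42 °C 16 were higher and 2 lower (median 1.47, Atf3 first at 4.21). The median of all genes in these comparisons lay between -0.0145 and 0.0753. Of the other family members Ier5l was tested, and Egr4 and Wt1 were not. Ier5l fell by 1.32 on the log2 scale after 2 h in H2O2 (SE 0.11, adjusted p = 1.78e-07, edgeR). Ier5l was also called lower in KCl (-0.51 at 2 h and -1.14 at 7 h) and higher after 42 °C (0.96), and was not called after 44 °C (0.07) or 7 h in H2O2 (0.08).

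The lists of upstream factors were mixed in direction in most comparisons. SRF and its partners (6 genes) were 3 higher and 3 lower after 2 h in H2O2 (median -0.03), 3 higher and 1 lower after 2 h in KCl (0.13), 4 lower after 7 h in H2O2 (-0.44) and 6 higher after 7 h in KCl (1.25, Elk4 first at 1.72). They were 2 higher and 4 lower after 44 °C (-0.22) and 2 higher and 1 lower after 42 °C (0.0011). Kinases of the ERK and p38 cascades (14 genes) were 1 higher and 6 lower after 2 h in H2O2 (-0.08), 3 and 9 at 7 h (-0.27), 4 and 3 after 2 h in KCl (0.06) and 9 and 3 at 7 h (0.28). Under heat they were 4 and 7 after 44 °C (-0.17) and 7 and 2 after 42 °C (0.11). The CREB family and its coactivators (8 genes) were 3 higher and 1 lower after 2 h in H2O2 (0.23), 3 and 3 at 7 h (-0.09), 5 and 1 after 2 h in KCl (0.29) and 6 and 2 at 7 h (0.69). Crem, which encodes activator and repressor forms, led the list after 7 h in KCl (2.39, SE 0.10, adjusted p = 2.61e-10). After 44 °C they were 4 and 3 (0.15) and after 42 °C 4 and 1 (0.20).

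Partners and regulators of the member proteins showed their own changes. The EGR corepressor Nab2 fell by 1.42 on the log2 scale after 7 h in KCl (SE 0.11, adjusted p = 4.18e-08), where Egr1 and Egr3 also fell, and by 1.01 after 7 h in H2O2 (SE 0.10, adjusted p = 8.18e-07), where they were higher. Nab1 fell by 0.82 after 7 h in H2O2 (SE 0.06, adjusted p = 1.77e-08) and was at -0.12 after 7 h in KCl (adjusted p = 0.0791, edgeR). At 2 h Nab2 was called lower in H2O2 (-0.44) and was not called in KCl (-0.25). Nab1 was not called at 2 h in H2O2 (-0.08) or KCl (0.13). Under heat Nab2 rose by 0.18 (44 °C) and 0.38 (42 °C) and Nab1 by 0.26 (42 °C). The NR4A partner Rxra fell by 0.71 after 2 h in H2O2 and by 0.58 after 2 h in KCl, while Rxrb was at -0.10 (not called) and -0.30 (called). Both were called higher after 7 h in H2O2 (0.41 and 0.24) and lower after 7 h in KCl (-0.35 and -0.17) and 42 °C (-0.39 and -0.15). Rxrb was higher after 44 °C (0.21), Rxra was not called there (0.05), and Rxrg was not tested. PP2A subunits and HSF1 (8 genes) were 1 higher and 3 lower after 2 h in H2O2 (median -0.03) and 2 and 3 after 44 °C (-0.06). They were 6 and 0 after 42 °C (0.26), 0 and 5 after 7 h in H2O2 (-0.15), 3 and 0 after 2 h in KCl (0.02) and 5 and 0 at 7 h (0.26). The list on the decay of AU-rich mRNAs held 6 factors, which do not all promote it. Of the 6, 4 were higher and 1 lower after 2 h in H2O2 (0.57), with Zfp36 (the decay factor tristetraprolin) first at 2.54 (SE 0.09, adjusted p = 5.38e-11, edgeR). They were 4 and 1 after 7 h in H2O2 (0.18), 5 and 0 after 2 h in KCl (0.44), 3 and 2 at 7 h (0.07), 4 and 2 after 44 °C (0.21) and 4 and 0 after 42 °C (0.36).

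The members' patterns over the 16 RNA libraries, each centred on its experiment, were compared by Pearson's r on log2 CPM as a description, since the libraries share controls and treatments. Egr1 and Egr3 were the most alike pair of members (r = 0.935), followed by Nr4a1 and Ier5 (0.893). Ier2 was most like Egr1 (0.858), and Ier3 most like Nr4a2 (0.782). Egr1 and Nr4a2 were the least alike (-0.531). Each member's nearest of 12452 genes was then taken, and the highest r was that of Plpp3 for Ier2 (0.986), a lipid phosphate phosphatase gene. The nearest genes of the others were Ccnl1 for Nr4a1 (0.983), Gjb2 for Egr3 (0.973), Ifrd1 for Egr1 (0.966), Fes for Nr4a2 (0.965), Xpnpep3 for Nr4a3 (0.956), Spry4 for Ier5 (0.955), Ahr for Egr2 (0.947) and Ttc16 for Ier3 (0.938).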

How the data were processed

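Expected counts per gene were deposited by the authors, who also deposited TPM values (scaled by length). The submitters' processing notes name STAR, RSEM and Bowtie and the build mm10. Neither annotation nor program versions appear in the sources used here. Per the labels' protocols RNA libraries came from a commercial kit and footprints from an earlier method. The expected counts were whole numbers already. The read-in estimate is a ratio the authors deposited, and DoG and read-in calls are theirs. Another 12 per-sample columns fit no labelled sample and were left aside.

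Tests used edgeR 4.0.16 under R 4.3.3 (quasi-likelihood F test, TMM normalization, filterByExpr, Benjamini-Hochberg adjustment over all genes, threshold 0.05), with the 3 heat groups, the 5 H2O2/KCl RNA groups and the 5 footprint groups fitted separately. Translational efficiency was an interaction term over 20 libraries, for genes passing the filter in both kinds. All genes of the 9 lists were counted. From a list the text names the called gene with the largest change in some comparisons or, for lists of at most 3, the genes themselves. For likeness a prior count of 2 was used. Alternatives were DESeq2 1.42.0, limma 3.58.1 on log2(TPM + 1), RLE size factors, no filter, a replicate block, the compared groups alone, a fold threshold, voom with weights by library kind and each library left out. Code was tested on simulated counts. Members and lists were chosen with earlier results of these data known.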

Additional observations from a re-analysis of the deposited data

Results flagged for a closer look

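The RNA of the members differed between durations or agents by the test of the difference itself in most comparisons: 8 of 9 between the 2 heat treatments, 9 of 9 between 7 h and 2 h in H2O2, 9 of 9 between 7 h and 2 h in KCl, 8 of 9 between H2O2 and KCl at 2 h and 9 of 9 at 7 h. Of all genes, 37.9% were called higher and 37.2% lower between the heat groups. Between the agents the shares were 27.0% and 24.2% at 2 h and 41.0% and 37.4% at 7 h. Most genes were thus called in these comparisons too. Between 7 h and 2 h, where every member was lower, 36.1% (H2O2) and 33.7% (KCl) of all genes were lower. For footprints 6 of 8 differed between 7 h and 2 h in H2O2 and 5 of 8 in KCl, all lower, against 11.1% and 8.43% of all genes.

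Some members were called in opposite directions against the control in the conditions compared. For the longer, milder heat (42 °C) against the shorter (44 °C) the log2 difference was 1.5 for Egr1, 2.14 for Egr3 and -1.02 for Nr4a2. Between 7 h and 2 h it was -3.12 for Nr4a3 in H2O2, and in KCl -1.79 for Nr4a3 and -1.89 for Ier2. Between H2O2 and KCl, Egr1 stood 2.99 apart at 2 h and 3.41 at 7 h. Egr3 stood 3.63 apart at 7 h and Ier2 2.70. Nr4a1 footprints were higher than the control at 2 h of KCl and lower at 7 h, a difference of -3.55. The call at 2 h was lost without replicate 1 of the footprint control (0.72, adjusted p = 0.230, edgeR) or either library of that group.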

How the results depend on the processing

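The count of called members stayed within 1.5 times its main value in 132 of 139 other settings and in 81 of 100 fits without 1 library. With a log2 fold change of at least 1, 3 members were called in RNA at 44 °C, 1 at 42 °C, 5 between the heat groups and 5 after 2 h in KCl. There was 1 such call in footprints after 7 h in H2O2 and 1 in efficiency after 2 h in KCl. The share of all genes that met this demand was not counted. With only the compared groups, 1 was called in footprints after 2 h in H2O2. Without 1 library the counts were 2 to 5 (footprints, 2 h of H2O2), 0 to 2 (7 h of H2O2), 1 to 4 (2 h of KCl), and in efficiency 1 to 6 (2 h of H2O2) and 1 to 4 (2 h of KCl); a group left with 1 library was assumed to vary like the others.

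On log2(TPM + 1) the direction turned for Egr2 (-0.12) and Ier5 (-0.053) at 42 °C and for Nr4a1 (-0.19) and Ier5 (-0.0028) between the heat groups. Without 1 library, values that had not passed the test spanned 0. In RNA these were Egr2 (-0.058 to 0.13) and Ier3 (-0.21 to 0.025) at 42 °C, Nr4a1 between the heat groups (-0.048 to 0.14), Ier5 between agents at 2 h (-0.017 to 0.016), and Egr2 (-0.53 to 0.023) and Nr4a1 (-0.15 to 0.097) after 7 h in KCl. In footprints they were Egr3 after 2 h in H2O2 (-0.75 to 0.96), Nr4a2 (-0.21 to 0.34) and Ier3 (-0.089 to 0.18) after 7 h in H2O2, and Nr4a2 (-0.17 to 0.45) and Ier3 (-0.28 to 0.099) between 7 h and 2 h of KCl. In efficiency they were Nr4a2 (-0.80 to 0.15) and Ier2 (-0.67 to 0.22) after 2 h in H2O2, Egr1 (-0.54 to 0.13) and Nr4a2 (-0.095 to 0.44) after 7 h in H2O2, and Egr1 (-1.28 to 0.071) and Nr4a2 (-0.043 to 0.48) after 7 h in KCl. The cause was not tested.

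To see whether replicate numbers pair the samples, the difference of replicate 1 and replicate 2 was correlated over genes between groups. The correlation was -0.02 to 0.12 in heat RNA and -0.05 to 0.05 in H2O2/KCl RNA, so replicate numbers shared little there. In footprints it was -0.38 to 0.42, with 6 of 10 pairs of groups above 0.1. Some footprint groups thus deviated together by replicate number, and the main footprint and efficiency fits held no replicate block. With the replicate block 8 members were called at 44 °C, 6 in footprints between 7 h and 2 h of KCl, 4 in efficiency after 7 h in H2O2 and 3 after 7 h in KCl, each 1 more than without it, and the other counts did not move. Footprint depth limits Egr2, Egr3, Nr4a2 and Nr4a3, with at most 91 counts per library.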
